A study of Mus musculus with 120 samples.

Results

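DYRK1A was overexpressed for 24 h in mouse embryonic stem (mES) cells, and the transcriptome of the induced cells was compared with that of the same clones before induction. The 6 arrays described here were chosen by their titles, which name the Dyrk1a ES clone, out of 120 arrays in the series. The series holds 20 such induction experiments, each with one transgene. The cells were clones of EBRTcH3, an mES line in which the ROSA26 locus carries a Tet-off transactivator and accepts a transgene by cassette exchange. The transgene was the human DYRK1A coding sequence without its untranslated regions, with a FLAG epitope at the carboxyl terminus, and it was followed by an IRES-YFP reporter. The 3 uninduced arrays came from cells kept with LIF and 1 µg/ml tetracycline (Tc), which holds the promoter silent. The 3 induced arrays came from the same 3 clones after 24 h without Tc. Every array thus carried the transgene, the transactivator and LIF, and removal of Tc and expression of the transgene cannot be told apart within these 6 arrays. The other 13 experiments with a 24 h time point on the same array type (78 arrays) had the same change of medium with other transgenes, and their values are given beside those of DYRK1A. All clones descended from one parental line, so the 3 replicates were clones and not separate animals.

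DYRK1A is a dual-specificity kinase that phosphorylates its own activation loop on tyrosine and its substrates on serine and threonine. Its known substrates include NFAT transcription factors, which it drives out of the nucleus against calcineurin, D-type cyclins, the LIN52 subunit of the DREAM repressor complex, splicing factors and the tail of RNA polymerase II. It is encoded on human chromosome 21 (HSA21), and its dosage has been linked to neuronal development and to the repressor REST in Down syndrome. The mouse gene lies at chr16:94569947-94695519 of GRCm38.p6.

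The cloning primers are shown because they define what was induced. Both are 29 bases long and begin with a rare-cutter site of 8 bases, AscI in the forward primer and PacI in the reverse primer. The capitals mark the start codon, which follows the AscI site directly, so that the insert began at the first codon.
DYRK1A-fw: ggcgcgccATGcatacaggaggagagact
DYRK1A-rev: ttaattaacgagctagctacaggactctg

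The array type is designed on mouse transcripts, and 3 of its probesets are annotated to Dyrk1a. The values are log2 signals. Probeset 1451977_at was at 8.44, 8.37 and 8.30 in the uninduced arrays of clones 1, 2 and 3, and at 8.89, 8.64 and 8.86 after induction. All induced arrays were above all uninduced ones, and the difference was 0.43 ± 0.0822 (SE, n = 3 clones). Its unadjusted p in limma was 0.00076, and adjusted over all probesets it was 0.242. Probeset 1426226_at went from 7.69, 7.53 and 7.54 to 7.76, 7.87 and 7.72. The groups did not overlap there either, and the difference was 0.20 ± 0.0801 with an unadjusted p of 0.0377. Probeset 1428299_at went from 8.27, 8.19 and 8.23 to 8.28, 8.43 and 8.28, a difference of 0.10 ± 0.0785 with an unadjusted p of 0.229. In the deposited values the targeted gene was therefore higher on each of its probesets in each clone. Only 1451977_at was higher by 0.27 or more in every clone. In the other 13 experiments the difference on 1451977_at lay between -0.38 and 0.08, so none reached the value of the DYRK1A clones. How much of each signal came from the human transgene and how much from the mouse gene was not tested, since the positions of the probes were not used here.

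**Figure D1:**
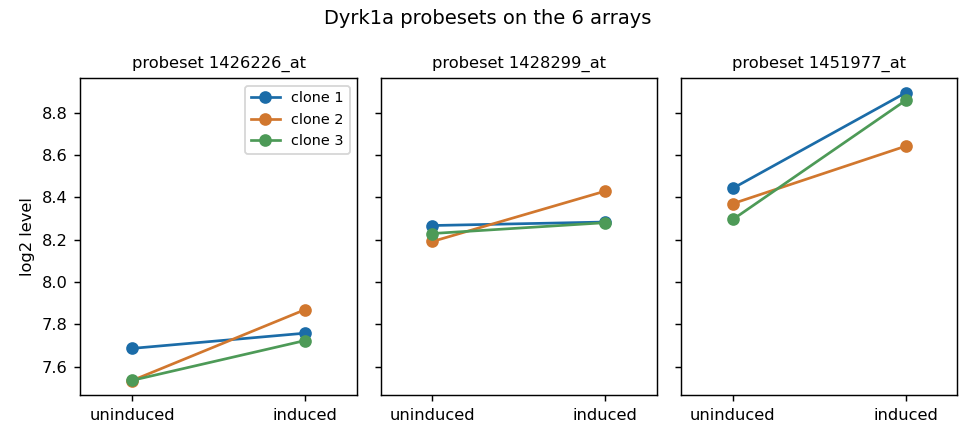
Log2 signal of the 3 Dyrk1a probesets (vertical axis) in the uninduced and induced arrays (horizontal axis). Points are single arrays and lines join the arrays of one clone. All lines go upward, most steeply on 1451977_at, where clones 1, 2 and 3 differ by 0.45, 0.27 and 0.56.

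The 6 arrays were alike in overall signal, with medians between 5.24 and 5.33 and correlations between arrays of 0.994 to 0.998. Their spread was not quite the same. The upper quartile lay at 7.33 to 7.44 in the uninduced arrays and at 7.44 to 7.49 in the induced ones, and the lower quartile at 3.86 to 3.93 and at 3.83 to 3.86. The genes were ordered by their mean level over the 6 arrays and divided into 4 bins of equal size. The median difference was then -0.055 and -0.054 in the lower bins and 0.087 and 0.074 in the upper ones, and it had the same sign in each clone. The gap between the median difference of the upper and of the lower genes was 0.132, against -0.050 to 0.030 in the other 13 experiments. A second quantile normalization of the 6 arrays, which forces them to one distribution, brought the bins to -0.0079, -0.019, 0.015 and 0.014. Genes of high level were therefore displaced upward as a whole in the deposited values, and most list medians below are given also after this second normalization. The Dyrk1a probesets had levels in the range of the upper bins. After the second normalization the difference on 1451977_at was 0.34, with an unadjusted p in limma of 0.00254. It was 0.11 on 1426226_at (0.184) and 0.0098 on 1428299_at (0.905). What set the displacement was not tested.

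The first question was which transcripts changed after 24 h of DYRK1A. In limma with the clone as a block, 0 of 45101 probesets (0%) passed an adjusted p under 0.05, and the smallest adjusted p was 0.242. At an unadjusted p under 0.05, 2954 probesets (6.55%) were higher and 3701 (8.21%) were lower in the induced arrays. Read from the same fit at one probeset per gene, the one of highest mean level, 1528 of 18194 genes (8.4%) were higher and 1409 (7.74%) were lower. The arrays of the groups did not overlap for 3127 probesets (6.93%) in the upward direction and for 3826 (8.48%) in the downward direction. The differences were small. They ran from -0.64 to 0.71, with 1% of them below -0.31 and 1% above 0.32, and 30 probesets exceeded 0.5 while 6 were below -0.5. Across all probesets the differences of clones 1 and 2 correlated at r = 0.215, those of clones 1 and 3 at 0.315 and those of clones 2 and 3 at 0.164, where probesets are not independent replicates. The count of calls depended on how the variance was moderated. With a variance trend on level and robust priors, 76 probesets (0.169%) passed an adjusted p under 0.05, of which 45 were higher and 31 were lower. Dyrk1a on 1451977_at was among them, with an adjusted p of 0.0419 in that fit.

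The largest upward differences were found in genes of low to middling level. They were taken among the 2163 probesets with 1 gene, a level at or above the median of the array, an unadjusted p under 0.05 and the same direction in each clone. Rsph4a, a radial spoke protein of motile cilia, was at 5.31, 4.95 and 5.10 uninduced and at 6.06, 5.46 and 5.86 induced. It had the largest difference, 0.68 ± 0.0814, and its groups did not overlap. Arg2, the mitochondrial arginase, went from 6.21, 5.30 and 5.69 to 6.72, 5.83 and 6.61, a difference of 0.65 ± 0.0976. Here clone 1 uninduced was above clone 2 induced, so the difference shows within clones and not between the groups as a whole. The second probeset of Arg2 was higher by 0.33. Fam183b went from 5.43, 5.64 and 5.90 to 6.06, 6.18 and 6.62, without overlap, a difference of 0.63 ± 0.0757. Several of the others are known from placenta and gut. Ascl2, a basic helix-loop-helix factor of trophoblast and intestinal stem cells, went from 6.49, 6.58 and 5.83 to 7.16, 6.88 and 6.49. Its difference was 0.55 ± 0.093, and its other probesets were higher by 0.56 and 0.41. Plet1, a surface protein of placental and other progenitors, went from 4.81, 5.27 and 5.39 to 5.78, 5.72 and 5.81, a difference of 0.61 ± 0.113. The other probesets of Plet1 did not follow, with -0.15 and 0.21.

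The homeobox gene Nkx6-3 (0.63 ± 0.0973) and the paired box gene Pax8 (0.52 ± 0.101) were also in this group, as were Spink10, a Kazal type protease inhibitor (0.57 ± 0.143), Syne2, a giant protein of the nuclear envelope (0.54 ± 0.0851), Zfp352 (0.53 ± 0.0745), the interferon-induced Ifi35 (0.52 ± 0.134) and the ESCRT-III subunit Chmp4c (0.52 ± 0.0983). The probesets of one gene did not always run together. Syne2 was lower on its other probesets, at -0.31, -0.15 and -0.10, Ifi35 stood at 0.05 and -0.0017, and Chmp4c was spread from -0.38 to 0.40. The other probeset of Pax8 stood at 0.07 and that of Zfp352 at 0.18. Of the 12 genes, 7 had arrays that did not overlap between the groups, all 12 kept an unadjusted p under 0.05 after the second quantile normalization, and 6 (Rsph4a, Arg2, Fam183b, Plet1, Chmp4c and Pax8) were above the differences of all 13 other experiments. Ascl2 was exceeded by 4 of the other experiments, whose median was 0.32. Over all genes 11.9% were above all other experiments, and over all probesets 6.93% did not overlap upward. The 12 were chosen for large differences in this experiment, so their counts follow in part from that choice.

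The largest downward differences, taken by the same rule among 982 probesets, were smaller. Ywhaz, a phosphoserine-binding adaptor, was at 9.41, 9.03 and 9.26 uninduced and at 8.46, 8.63 and 8.68 induced on 1436981_a_at. The groups did not overlap, and the difference was -0.64 ± 0.106. The other 6 probesets of Ywhaz, most of them of higher level, lay between -0.18 and 0.02. Bcas2, a subunit of a spliceosome-activating complex, went from 8.19, 7.69 and 7.999 to 7.53, 7.17 and 7.67, a difference of -0.50 ± 0.0852. Piezo2, a mechanosensitive cation channel, gave the closest clones. It went from 6.14, 6.19 and 6.26 to 5.70, 5.75 and 5.83, so that the clones differed by -0.44, -0.44 and -0.43. The remaining genes were Smyd1, a methyltransferase of striated muscle (-0.43 ± 0.0849), Cox8c, a cytochrome c oxidase subunit (-0.41 ± 0.0761), Slc25a29, a mitochondrial carrier of basic amino acids (-0.41 ± 0.0826), 4930429D17Rik (-0.40 ± 0.0735), the RNA-binding protein Hnrnpr (-0.40 ± 0.09), the cohesin subunit Rad21 (-0.40 ± 0.0841), Dbh, which makes noradrenaline from dopamine (-0.40 ± 0.0729), Wdr91 (-0.40 ± 0.078) and the potassium channel Kcnq1 (-0.40 ± 0.0836). All 12 lay below the differences of all 13 other experiments, and 11 had arrays that did not overlap. Over all genes 11.6% lay below all other experiments, and over all probesets 8.48% did not overlap downward. The 12 were chosen for large differences in this experiment, which favours such counts.

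**Figure D2:**
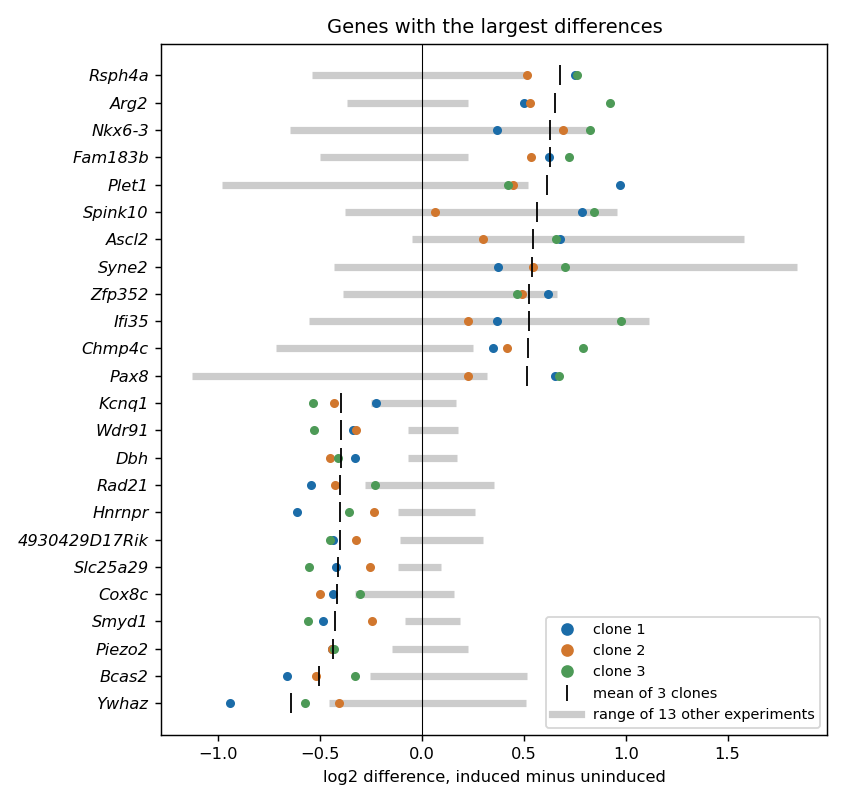
Log2 difference, induced minus uninduced (horizontal axis), of the 12 genes with the largest upward and the 12 with the largest downward difference. Points are the 3 clones, ticks their mean, and grey bars the range of the 13 other experiments at 24 h. The clones of each gene lie on one side of 0, and the mean of each of the 12 downward genes lies left of its bar.

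For several of the downward genes a single probeset carried the difference. Of the 12, 6 were measured on an x_at probeset, the class whose probes can also bind other transcripts, although 2441 of the 45101 probesets are of that class. The other probesets of Hnrnpr lay between -0.02 and 0.03, those of Rad21 at -0.13 and 0.03, and those of Bcas2 at -0.0097 and -0.19. The second probeset of Cox8c was lower as well, at -0.29. The other probesets of Smyd1 did not run together, at -0.35, -0.25, 0.02, 0.06 and 0.31, the last at a level of 3.15. Those of Wdr91 were at -0.09 and 0.04, and those of Dbh at -0.02 and -0.22. Slc25a29 was at -0.07, -0.09, 0.03 and -0.19 on its other probesets. The second probeset of Piezo2, at a level of 3.01, was at -0.13. The same pattern held in the 31 downward calls of the fit with trend and robust priors, 19 of which were x_at probesets. Those calls included Mcm6 and Mcm4, subunits of the replicative helicase (-0.31 and -0.29), the chromatin protein Hmgb2 (-0.32), Paics of purine synthesis (-0.33), the nuclear transport factors Kpnb1 (-0.25) and Ran (-0.23) and the RNA helicase Ddx5 (-0.29 and -0.27). All 16 genes with such a call had another kind of probeset too. The medians of those others ran from -0.12 to 0.058 per gene, and 11 of the 16 were below 0, with a median over the genes of -0.013. A lower level of these transcripts was thus not seen by their other probesets at the size given by the x_at probesets. The cause of the gap between probesets was not tested.

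Among the 45 upward calls of that fit were several genes that other sections describe, and some that were noted only after their values had been seen. Nupr1, a stress-induced nuclear protein, was called on each of its probesets, at 0.49 and 0.50. Selenop, the plasma selenium carrier, went from 7.08, 7.17 and 7.31 to 7.59, 7.56 and 7.91, a difference of 0.50. Clu, the extracellular chaperone clusterin, went from 6.51, 6.23 and 6.24 to 6.998, 6.63 and 6.86, a difference of 0.50. For these last genes the groups did not overlap. Slc47a1, an exporter of organic cations (0.49), Anxa1 (0.42), the unconventional myosin Myo1f (0.40 and 0.38) and the histone demethylase Kdm2b (0.32) were called as well. Of the 45 probesets, 30 were above all other experiments and 42 were above at least 11 of them. Over all genes 11.9% were above all other experiments, and 5571 of 18194 were above at least 11 of them. The 45 were called for their differences in this experiment, so their counts follow in part from that choice.

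The lists of genes linked to DYRK1A by its known roles were examined next, beginning with its kinase family. For each list the count at an unadjusted p under 0.05 is to be read against 8.4% higher and 7.74% lower over all genes, whose median difference was 0.021. These shares differed with level. In the 4 bins, from the lowest level to the highest, 1.87%, 5.94%, 17.1% and 8.66% of the genes were higher and 11%, 14.7%, 4.75% and 0.528% were lower. In the same bins 30.9%, 35.1%, 74.7% and 83.7% of the genes had a difference above 0, against 56.1% of all genes. In limma with the clone as a block and without trend and robust priors, no member of any list passed an adjusted p under 0.05. With those priors some members did, among them Dyrk1a, Chac1, Nupr1, Prdm14 and Eif4g2. Of 23 DYRK, HIPK and CLK kinases and partners, 3 were higher and 0 were lower. Besides Dyrk1a these were Dyrk3, a kinase of stress granules, at 9.80, 9.80 and 9.79 uninduced and at 10.04, 9.94 and 10.11 induced (0.23 ± 0.0753), and Hipk3 (0.19 ± 0.0787). Dyrk3 did not overlap between the groups and exceeded the other 13 experiments. The closest relative, Dyrk1b, had a difference of -0.15 with an unadjusted p of 0.104. The median of the list was 0.045, and 0.00031 after the second quantile normalization.

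Calcineurin and NFAT genes, the classical route opposed by DYRK1A, showed little. Of 21 members, 1 was higher and 0 were lower, with a median of 0.038 that became -0.013 after the second normalization. The higher gene was Ppp3cc, a catalytic subunit of calcineurin, at 5.01, 4.80 and 4.96 uninduced and at 5.24, 5.14 and 5.40 induced (0.33 ± 0.0769). Its arrays did not overlap, and no other experiment exceeded it. Rcan1, a calcineurin inhibitor that is itself a target of NFAT, differed by -0.31, 0.02 and 0.40 in the 3 clones, a mean of 0.04 ± 0.124. The clones thus gave no common direction for Rcan1.

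The transcript of REST, the repressor of neuronal genes, gave no common direction. Rest was at 10.69, 10.41 and 10.56 uninduced and at 10.79, 10.58 and 10.43 induced, a difference of 0.05 ± 0.0841. The groups overlapped, and clone 3 went the other way. Of 22 genes of the REST complex, 3 were higher and 0 were lower, namely the histone-binding subunit Phf21a (0.24 ± 0.071), the corepressor Rcor2 (0.20 ± 0.0733) and Zmynd8 (0.18 ± 0.0711). For each of the 3 the groups did not overlap. With one clone left out the count was 1 or 2, and after the second normalization it was 1. The unadjusted p in limma was then 0.0466 for Phf21a, 0.0669 for Rcor2 and 0.194 for Zmynd8. The median of 0.077 became 0.026 after the second normalization. Of 45 neuronal genes bound by REST, 5 were higher and 4 were lower. The higher ones were Snap91 (0.37), Stmn3 (0.35), the neurofilament Nefl (0.33), Chga (0.25) and the neuronal tubulin Tubb3 (0.19). The lower ones were Miat (-0.29), Unc13a (-0.26), Cplx1 (-0.23) and Nrxn3 (-0.20). The median of these neuronal genes was -0.046, below that of the other 13 experiments (-0.041 to 0.057). After the second normalization it was -0.023, at rank 12 of the 14, and clone 1 was at 0.019 while clones 2 and 3 were at -0.056 and -0.032.

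Cell cycle genes were examined because DYRK1A acts on LIN52 and on cyclin D1. Of 20 DREAM and MuvB genes, 2 were higher and 1 was lower. Rbl1, the pocket protein p107, went from 7.17, 7.22 and 6.92 to 7.34, 7.51 and 7.34 without overlap (0.29 ± 0.079), and E2f6 was higher by 0.20 ± 0.0744. Rb1, the retinoblastoma protein, was lower in all clones, with a difference of -0.25 ± 0.0886. Lin52 had a difference of -0.09 ± 0.0954. Of 29 D-type cyclins, G1 regulators and CDK inhibitors, 4 were higher and 2 were lower. After the second normalization 1 was higher and 3 were lower. The list median of 0.056 then became 0.011, at rank 12 of the 14 experiments. Ccnd2 went from 7.92, 8.02 and 7.67 to 8.16, 8.36 and 8.04, the largest upward difference of the list at 0.32 ± 0.0733, and Cdk6 (0.23), Gadd45g (0.21) and Ccnd3 (0.18) followed. Cdkn2c, the CDK inhibitor p18, went from 5.75, 5.69 and 5.77 to 5.39, 5.46 and 5.25, and the phosphatase Cdc25a was at -0.21. Cdkn2c did not overlap between the groups, and its difference of -0.37 ± 0.0827 lay below those of all other experiments. Ccnd1 had a difference of 0.02 ± 0.079, with no common direction in the clones. Of 31 mitosis genes 1 was higher (Ndc80, 0.18) and 0 were lower, and of 41 DNA replication genes 0 were higher and 1 was lower (Rrm2, -0.20, on an x_at probeset). The medians of these lists, which hold many genes that DREAM represses in resting cells, were 0.063 and -0.0076, and 0.011 and -0.061 after the second normalization.

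The next list held genes that the transcription factor ATF4 drives when amino acids are short or protein folding is disturbed. Of 45 such genes, 10 were higher and 1 was lower at an unadjusted p under 0.05, and 39 (86.7%) had a difference above 0. In the highest level bin, where the median level of the list lay, 83.7% of the genes were above 0. The list median was 0.097, with 0.15, 0.045 and 0.082 in clones 1, 2 and 3. Nupr1 went from 7.56, 7.04 and 7.01 to 8.18, 7.67 and 7.23, a difference of 0.49 ± 0.0967. Chac1, which degrades glutathione, went from 8.62, 8.49 and 8.02 to 9.17, 8.91 and 8.44, a difference of 0.47 ± 0.0738. For these genes the clones differed in their starting level, so that the groups overlapped while every clone moved upward. Ddit3, the transcription factor CHOP, went from 7.28, 7.16 and 6.97 to 7.64, 7.40 and 7.46 without overlap, a difference of 0.36 ± 0.0788. Herpud1, a component of endoplasmic reticulum degradation, went from 8.11, 7.90 and 7.78 to 8.31, 8.16 and 8.26, also without overlap, a difference of 0.31 ± 0.0819.

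The metabolic members of the ATF4 list were higher as well. Pck2, the mitochondrial phosphoenolpyruvate carboxykinase, had a difference of 0.30 ± 0.0787, Mthfd2 of mitochondrial folate metabolism 0.29 ± 0.0711, the alanine transaminase Gpt2 0.28 ± 0.071, and Psph, which completes serine synthesis, 0.21 ± 0.0779. The regulators Cebpb (0.29 ± 0.0713) and Trib3 (0.21 ± 0.0761) completed the group of 10. Gpt2 was the one whose clones were closest, at 0.30, 0.26 and 0.28. Atf4 itself was at 11.53, 11.47 and 11.30 uninduced and at 11.79, 11.61 and 11.37 induced, higher in each clone by 0.26, 0.14 and 0.07 but with an unadjusted p of 0.0737. Asns, the asparagine synthetase, had a difference of 0.08 ± 0.073. The lower member was Slc7a11, the cystine transporter, on a probeset of low level (3.35), with -0.22 ± 0.0765.

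The ATF4 genes were compared with the other 13 experiments, which had the same removal of Tc. There the median of the list lay between -0.27 and 0.0080, so the DYRK1A experiment was the highest of the 14. After the second quantile normalization, applied to each experiment, its median was 0.053 against -0.27 to 0.012, and it was again the highest. In the deposited values 20 of the 45 genes (44.4%) were above all other experiments, compared with 11.9% of all genes. That share of all genes covers every level, while the list had a median level of 9.74, in the range displaced upward. The count was not repeated after the second normalization. Of the 10 higher members, 6 (Nupr1, Pck2, Mthfd2, Cebpb, Gpt2 and Psph) were above all other experiments. For Chac1 the other experiments spread from -0.89 to 1.22. The median of the others was -0.090, so the medium change was more often accompanied by lower levels of these genes, and 8 of the 39 other clones had a list median above 0. In limma, tested for the difference between the DYRK1A experiment and the others, Psph reached an unadjusted p of 0.00494, Pck2 0.0183 and Nupr1 0.0217, and none passed after adjustment. Psph, Pck2 and Nupr1 were among the 10 members already higher in this experiment, which favours small p-values.

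The promoters of 3 of the higher members are shown because they hold the core of the C/EBP-ATF response element to which ATF4 binds, TGATGCAA on either strand. The windows run from 250 bases before to 50 bases after the start, as RefSeq gives it for GRCm38.p6, and the capitals mark the match, which lies on the opposite strand of the gene in each of them. The first lies at chr2:119350992-119351291 on the plus strand, the second at chr8:94386179-94386478 on the plus strand and the third at chr7:126625421-126625720 on the minus strand.
Chac1: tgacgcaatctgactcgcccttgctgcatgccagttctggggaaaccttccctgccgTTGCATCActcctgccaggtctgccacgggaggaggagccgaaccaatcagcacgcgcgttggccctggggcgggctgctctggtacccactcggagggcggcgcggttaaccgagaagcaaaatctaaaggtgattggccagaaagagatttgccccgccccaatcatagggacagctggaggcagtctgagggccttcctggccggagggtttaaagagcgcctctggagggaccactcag
Herpud1: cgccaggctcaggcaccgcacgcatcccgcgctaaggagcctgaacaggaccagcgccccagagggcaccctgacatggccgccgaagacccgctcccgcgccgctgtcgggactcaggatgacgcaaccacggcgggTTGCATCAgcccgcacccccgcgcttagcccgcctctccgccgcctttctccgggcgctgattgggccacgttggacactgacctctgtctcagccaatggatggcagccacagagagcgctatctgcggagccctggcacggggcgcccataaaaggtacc
Nupr1: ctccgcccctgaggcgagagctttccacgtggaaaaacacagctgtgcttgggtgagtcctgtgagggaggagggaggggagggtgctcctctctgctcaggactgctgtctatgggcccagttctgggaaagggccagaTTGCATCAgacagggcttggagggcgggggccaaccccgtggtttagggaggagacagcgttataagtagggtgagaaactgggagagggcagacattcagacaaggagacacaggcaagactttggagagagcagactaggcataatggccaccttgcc
The motif was present in 279 of 27025 promoters (1.03%), in 10 of the 38 members of the ATF4 list that had a promoter in the table (26.3%) and in 3 of the 10 higher members. The list was compiled from known ATF4 targets, so its share of the motif is a property of the list and not of these arrays.

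**Figure D3:**
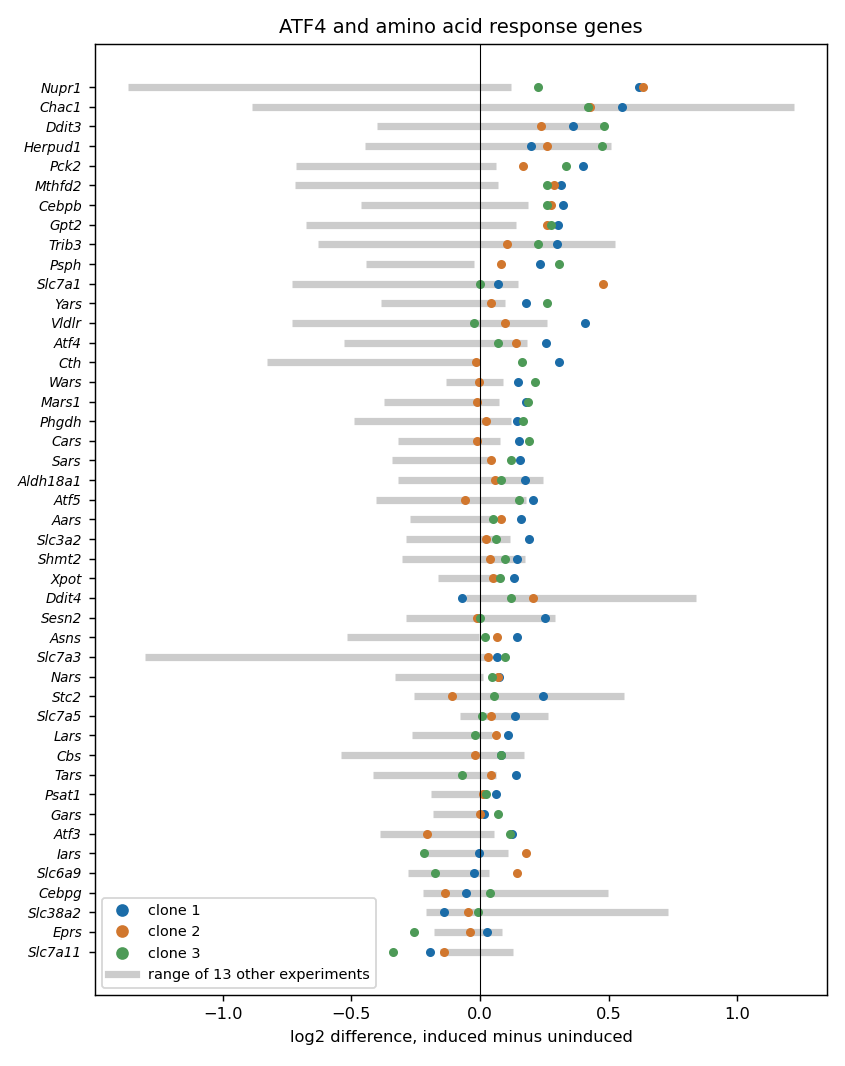
Log2 difference, induced minus uninduced (horizontal axis), of the 45 members of the ATF4 list. Points are the 3 clones of the DYRK1A experiment and grey bars span the 13 other experiments at 24 h. In the 10 genes at the top every clone lies right of 0, and Slc7a11 at the foot lies left of it in every clone.

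Genes of protein folding and the unfolded protein response overlapped in function with the ATF4 group. Of 40 such genes, 4 were higher and 0 were lower. These were the chaperones Hspa4l (0.30 ± 0.0834), Hspa1b (0.27 ± 0.0839) and Hspa1a (0.24 ± 0.0722) and the endoplasmic reticulum protein Creld2 (0.21 ± 0.0873). Hspa1a and Hspa1b are near-identical genes, so that their probesets may share signal. Hspa4l went from 5.26, 5.14 and 4.95 to 5.51, 5.33 and 5.43, and it alone of the 4 had groups that did not overlap. The median of the list was 0.054 and 0.046 after the second normalization, the highest of the 14 experiments by either set of values.

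Genes of the translation machinery were examined by compartment, since the study had itself named translation and ribosome terms for these arrays, and lists on that theme are therefore not independent of them. Mitochondrial ribosomal proteins had the most uniform direction of the lists. All 74 had a difference above 0, from 0.00057 to 0.22, with a median of 0.12. Of them 7 were higher at an unadjusted p under 0.05 and 0 were lower, which is 9.46% against 8.4% of all genes. A difference above 0 was found in 83.7% of the genes in the highest level bin, where the median level of the list lay. Mrpl12 went from 11.03, 11.21 and 10.95 to 11.26, 11.27 and 11.32 (0.22 ± 0.0832). Mrps11 went from 8.99, 8.98 and 8.81 to 9.18, 9.18 and 9.04, and its clones were close together at 0.19, 0.21 and 0.22. Mrpl27 went from 10.27, 10.30 and 10.10 to 10.45, 10.49 and 10.35 (0.21 ± 0.0714). The groups did not overlap for these 3 genes, and Mrpl41, Mrpl36, Mrps5 and Mrpl2 followed with 0.18 to 0.19.

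The direction of the mitochondrial ribosomal genes depended in part on the displacement of high level genes, and it was smallest in clone 2. The clone medians were 0.12, 0.036 and 0.20. After the second quantile normalization 64 of the 74 were above 0, the median was 0.062, the clone medians were 0.078, -0.0097 and 0.10, and 1 gene was higher at an unadjusted p under 0.05. In the deposited values that count was 0 without clone 1, 10 without clone 2 and 1 without clone 3. Over all genes, 9327 of 18194 were above 0 after the second normalization. In the other experiments the list median lay between -0.14 and 0.035, and the DYRK1A experiment was the highest with and without that normalization. In the deposited values 40 of the 74 genes (54.1%) were above all other experiments, against 11.9% of all genes. The median level of the list was 10.17, in the displaced range, and the count was not repeated after the second normalization.

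The other lists of this theme gave smaller values. Respiratory chain subunits had a median of 0.057 (0.034 after the second normalization) with 60 of 70 (85.7%) above 0, and 0 passed in either direction. Ribosome biogenesis genes had a median of 0.064 with 57 of 69 (82.6%) above 0 and 0 past the threshold. The second normalization reduced that median to 0.0079, which was rank 8 of the 14 experiments. The median levels of both lists lay in the highest bin, where 83.7% of the genes were above 0. Cytosolic ribosomal proteins stood at 0.0066 with 0 higher and 1 lower of 46, and translation factors at 0.023 with 0 higher and 1 lower of 47. The lower ones were Rpl27a (-0.20 ± 0.0792, on a probeset of level 6.75, where the median level of the list was 13.7) and Eif4g2, a translation initiation regulator related to eIF4G, which went from 13.39, 13.20 and 13.37 to 13.15, 13.03 and 13.13 without overlap (-0.21 ± 0.0717). The promoters of these groups differ in known elements. The ETS core CCGGAAGT was present on either strand in 18.5% of 65 mitochondrial ribosomal promoters and in 32.2% of 59 ribosome biogenesis promoters, against 4.31% of all promoters, and the NRF1 core GCATGCGC in 12.3% and 3.39%, against 3.05%. The C/EBP-ATF core was in 0 of the 65 and 0 of the 59.

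Of 34 genes of RNA polymerase II and elongation, a machinery that DYRK1A phosphorylates, 2 were higher and 0 were lower. These were Aff1 of the super elongation complex (0.28 ± 0.0751) and Ccnt2 of P-TEFb (0.17 ± 0.0739). The median of 0.086 fell to 0.019 with the second normalization. Of 48 splicing factors and speckle proteins, 1 was higher (Luc7l, 0.21 ± 0.0711) and 1 was lower (Sfpq, -0.20 ± 0.0757), with a median of 0.0013 that became -0.022 after the second normalization.

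The cells had the profile of ES cells before and after induction. The 9 ES cell markers, Pou5f1, Sox2 and Nanog among them, were at levels of 11.02 to 14.01, where the median of all probesets was 5.27, and 0 of 9 passed an unadjusted p under 0.05. Nanog went from 12.27, 12.12 and 12.26 to 12.33, 12.32 and 12.30, a difference of 0.10 ± 0.0753, and Pou5f1 from 12.85, 13.03 and 12.92 to 13.03, 13.05 and 13.02, also 0.10. Of 37 genes of the pluripotency network, 7 were higher and 0 were lower, with a median of 0.078 (0.051 after the second normalization). The count depended on each clone, with 3 higher without clone 1, 4 without clone 2, and 3 higher and 2 lower without clone 3. After the second normalization 3 were higher and 1 was lower. Prdm14, a germ cell and naive state regulator, led them. It went from 7.55, 7.77 and 7.32 to 8.07, 8.18 and 7.66, a difference of 0.42 ± 0.0753. Dppa3 (0.24), Tex19.1 (0.24), Fgf4 (0.23), Tbx3 (0.22), Nr0b1 (0.21) and Tcl1 (0.18) were the others. Of these 7, Prdm14, Fgf4, Tbx3 and Tcl1 were above all 13 other experiments, in which Prdm14 ranged from -1.89 to 0.28. Over the whole list 18.9% were above all others, against 11.9% of all genes. The median level of the list was 11.02, in the displaced range. After the second normalization Prdm14 and Fgf4 kept an unadjusted p under 0.05 in limma, while Tbx3 (0.17) and Tcl1 (0.113) did not.

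Markers of other cell types were at lower levels than the ES cell markers. Primitive endoderm markers were at 5.02 to 6.11, trophectoderm markers at 4.03 to 5.96 and mesoderm markers (3 of 4 measured) at 5.00 to 6.26, with 0 past the threshold in each. Neural markers were at 5.23 to 8.67, and Tubb3 alone of the 4 was higher. Fibroblast or feeder markers were at 2.87 to 7.40. Of these 8, the surface protein Thy1 was higher by 0.36 ± 0.0795, and the collagen Col1a2 went from 5.95, 6.23 and 6.23 to 5.71, 5.74 and 5.80 without overlap (-0.39 ± 0.0799). The mean level of the 8 was 5.05 to 5.19 in the uninduced arrays and 4.99 to 5.12 in the induced ones. Of 48 formative and early lineage genes, 6 were higher and 1 was lower. Fgf15, a growth factor of early embryo and gut, went from 6.34, 6.61 and 6.55 to 6.89, 6.83 and 7.04 without overlap (0.42 ± 0.0873), and Ascl2, Map2 (0.31), the methyltransferase Dnmt3a (0.26), Rarb (0.24) and Gsc (0.23) were the others, while Pax3 was at -0.18. Map2, Rarb and Gsc were at levels of 4.30, 3.98 and 3.55, below the median level of all probesets.

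Among the remaining lists, hypoxia targets had the highest share of higher members, 10 of 27 (37%), with 0 lower. The prolyl hydroxylase Egln3 went from 6.94, 7.66 and 6.81 to 7.32, 7.88 and 7.55 (0.45 ± 0.103). Ankrd37 (0.37), Ndufa4l2 (0.30), Ndrg1 (0.30), P4ha2 (0.29), Bhlhe40 (0.29), Epas1 (0.26), Bnip3 (0.24), Ero1a (0.22) and P4ha1 (0.17) were also higher. The list median was 0.10, but it was rank 5 of the 14 experiments, and the median of the others was 0.088. After the second normalization it was 0.058, at rank 11 with the others at a median of 0.088, and 7 members were higher. Without clone 3 the count was 6. None of the 10 exceeded all other experiments. Glycolysis, with 2 higher of 19 (Aldoc 0.45 and Pfkfb3 0.36) and a median of 0.089, was also rank 5, and rank 9 with 0.041 after the second normalization. Of 27 cholesterol and fatty acid synthesis genes 6 were higher and 0 were lower, led by Ebp (0.28 ± 0.0753) and Dhcr7 (0.25 ± 0.0753), enzymes of the last steps to cholesterol. Their median of 0.12 was rank 3, and 0.050 with rank 8 after the second normalization. The count of 6 fell to 2 after it and to 1 without clone 1.

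Of 32 ERK feedback and immediate early genes, 2 were higher (Ier3, 0.41 ± 0.0757, and Dusp4, 0.27 ± 0.0948) and 2 were lower (Egr1, -0.27 ± 0.0748, and Egr3, -0.26 ± 0.0747). Egr3 went from 6.79, 6.91 and 6.91 to 6.62, 6.57 and 6.65, and its groups did not overlap. After the second normalization 2 members of this list were higher and 5 were lower. The list median of 0.0085 became -0.048, at rank 13 of the 14 experiments. Of 36 Notch, Hedgehog and Wnt targets, 2 were higher and 1 was lower. The higher ones were Gli1 (0.25 ± 0.0734) and Smo (0.23 ± 0.0717) of the Hedgehog pathway. The lower one was the Wnt antagonist Nkd1 (-0.24 ± 0.0722). After the second normalization 0 were higher and 3 were lower. The unadjusted p in limma was then 0.0599 for Gli1 and 0.0597 for Smo. Of 28 p53 targets 0 passed in either direction, with a median of 0.032 that became -0.043, the lowest of the 14 experiments, after the second normalization. Of 66 mouse orthologs of other HSA21 genes, 9 were higher (13.6%) and 3 were lower. The median level of this list was 8.35, in the bin where 17.1% of all genes were higher. The count of 9 became 5 after the second normalization and 4 to 6 with one clone left out. Ifnar1, an interferon receptor chain, was the highest of them at 0.33 ± 0.0765, and the related receptor chains Ifngr2 (0.21) and Ifnar2 (0.18) were higher too. Get1 (0.26), Pdxk (0.25), Cbr1 (0.20), Jam2 (0.20), Ltn1 (0.19) and Ets2 (0.17) made up the rest, and Sik1 (-0.23), Mx2 (-0.21) and Col6a2 (-0.19) were lower.

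**Figure D4:**
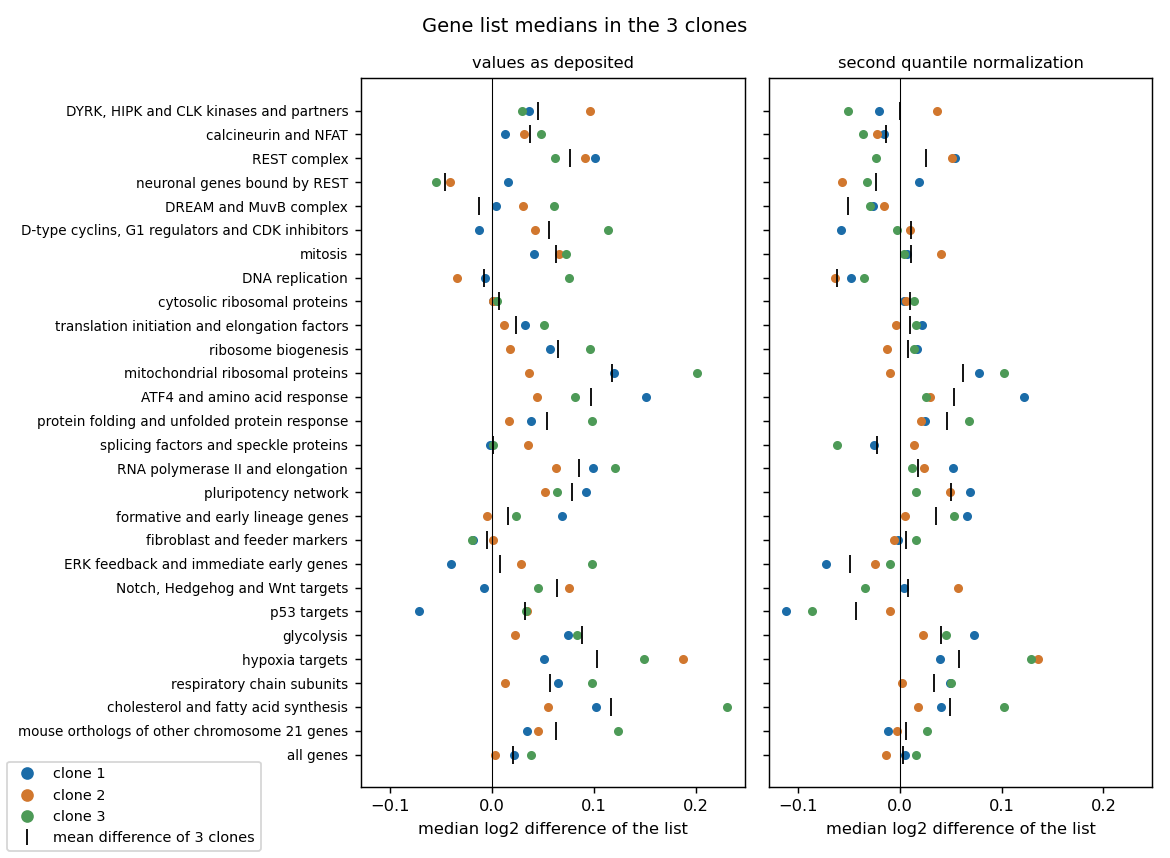
Median log2 difference, induced minus uninduced (horizontal axis), of the 27 gene lists and of all genes in the DYRK1A experiment, in the deposited values (left) and after a second quantile normalization (right). Points are the medians of single clones and ticks the medians of the mean difference. Of the lists, 23 have a median above 0 in the deposited values, and the medians of the mitochondrial ribosomal and ATF4 lists are 0.12 and 0.097 before and 0.062 and 0.053 after that normalization.

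The DYRK1A response was last compared with those of the other 13 transgenes, with the mean difference of an experiment as the unit. In limma 0 of 45101 probesets (0%) passed an adjusted p under 0.05, the smallest being 0.441. An unadjusted p under 0.05 was reached by 3771 (8.36%), 1207 of them more positive and 2564 more negative in the DYRK1A experiment. Without dim probesets, 952 of 22551 were more positive and 875 more negative at that threshold. The comparison used the deposited values, with their displacement by level. Dyrk1a on 1451977_at had an unadjusted p of 0.000763 in this comparison. Smyd1 (0.000101), Wdr91 (0.000122), Col1a2 (0.00017), Dbh (0.000186) and Arg2 (0.000649) had values of the same order. Smyd1, Wdr91, Dbh and Arg2 had been chosen for large differences in this experiment, which favours small p-values here. Each experiment is a single one of one transgene, and the comparison has 1 DYRK1A value against 13 others. The lists for which the DYRK1A median was the highest of the 14 with and without the second normalization were those of ATF4, mitochondrial ribosomal proteins, respiratory chain and protein folding. The lists that were highest in the deposited values alone included RNA polymerase II, ribosome biogenesis and the REST complex, which took ranks 3, 8 and 8 after it.

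**Figure D5:**
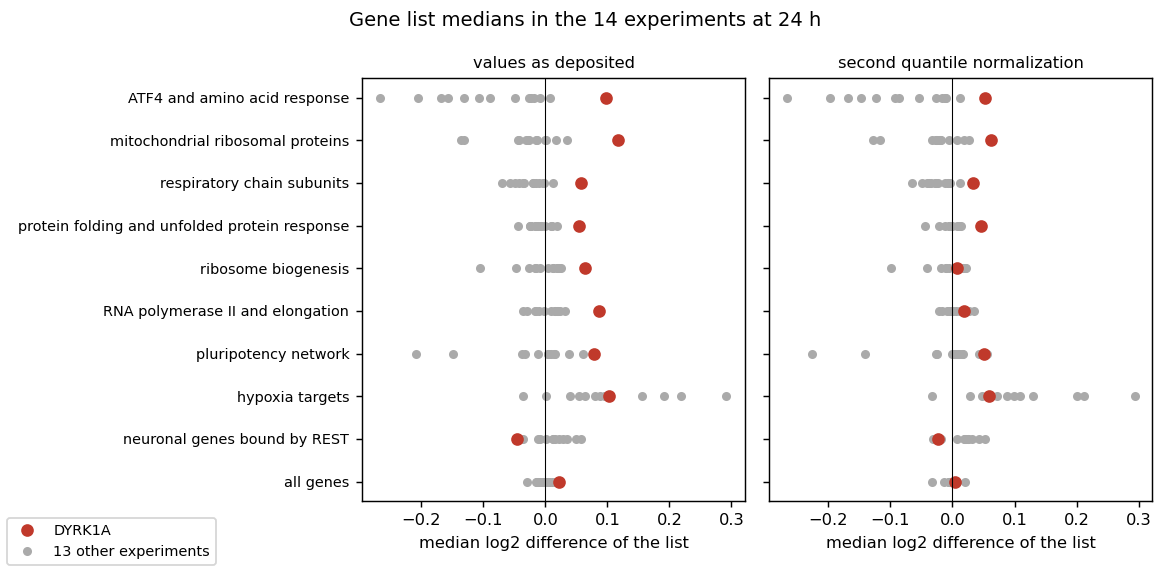
Median log2 difference (horizontal axis) of 9 gene lists and of all genes in each of the 14 experiments at 24 h, in the deposited values (left) and after a second quantile normalization (right). Each point is an experiment and DYRK1A is in red. After that normalization it is the highest point for the ATF4, mitochondrial ribosomal, respiratory chain and protein folding lists, with medians of 0.053, 0.062, 0.034 and 0.046.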

How the data were processed

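RNA of 3 clones with Tc and 3 without Tc for 24 h was hybridised to Affymetrix Mouse430_2 arrays. The deposited values are log2 probeset signals that the authors made from the scanned arrays. The submitters' processing notes name RMA and affy, without versions. RMA quantile-normalizes and summarizes probes, so a change shared by most genes is removed. No depth applies to arrays, and the number of clones limits the precision. The replicates are clones of one transgene. With the clone as a block, p-values weigh the mean difference against the disagreement of the within-clone differences, with a variance moderated over all probesets. Samples were grouped by title, and the replicate number, which names the clone, was used as a block. Residuals of arrays with the same number correlated at 0.552, 0.248 and 0.3 in clones 1, 2 and 3, above 0.1 in each. They were not set against arrays of different numbers, so the pairing rests on the replicate numbers in the titles.

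Differences, induced minus uninduced, were tested with limma 3.58.1 in R 4.3.3 with Benjamini-Hochberg adjustment over 45101 probesets. The threshold was 0.05. Fold changes are log2 differences. The study's own kind of regularized test was run as an alternative (window of 100 probesets, prior weight 10), as were the fit without the block, the methods' test, trend and robust priors, one fit over the 114 arrays of this type, a filter on dim probesets, a second quantile normalization, 1 probeset per gene and the omission of each clone. The second quantile normalization within each of the 14 experiments was added after the data had been seen. The fit was tested on simulated data. Of the probesets, 34958 had 1 gene, 932 several and 9211 none in the platform annotation, and symbols of 34754 were updated through RefSeq. Of 1137 entries in 27 lists, 1044 were measured, 6 of them by an older symbol. Where a gene had several probesets, its list value came from the one with the highest mean level.

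Named genes were Dyrk1a, the 12 with the largest difference in each direction under the criteria given with them, list members, and genes called by an alternative with at most 20 calls. No gene qualified from the comparison with the other experiments. The members, lists and tests were chosen with earlier results of these data known. Genes called with trend and robust priors were named after their values were seen. Primer sequences came from the study's supplementary material, and promoters from RefSeq (GRCm38.p6).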

Additional observations from a re-analysis of the deposited data

How the results depend on the processing

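Without the replicate block, which ignores the pairing by clone, 0 probesets passed an adjusted p under 0.05 and 3836 an unadjusted one, against 6655 with it. Counts at an unadjusted p were 3554 with the methods' test, 4321 in one fit over all arrays and 3504 in a fit on one probeset per gene, and 4340 to 6579 with one clone left out. Adjusted calls were 76 with trend and robust priors and 0 to 13 with one clone left out, the 13 arising without clone 2. All other settings gave 0. Against the other experiments the unadjusted count was 1827 without dim probesets and 3633 to 6030 with one clone left out. The second quantile normalization moved the list medians to 0.00031 (DYRK kinases), -0.013 (calcineurin), 0.026 (REST complex), -0.051 (DREAM), 0.011 (mitosis), 0.010 (cytosolic ribosomal), 0.0079 (ribosome biogenesis), -0.022 (splicing), 0.019 (RNA polymerase II), 0.051 (pluripotency), 0.0080 (Notch, Hedgehog and Wnt), -0.043 (p53), 0.041 (glycolysis), 0.0060 (HSA21 orthologs) and 0.0033 (all genes). The mean over all probesets of a gene gave -0.0056 (calcineurin), 0.050 (REST complex), -0.0056 (cytosolic ribosomal), -0.0020 (translation factors) and 0.018 (Notch, Hedgehog and Wnt). Without dim probesets the medians were 0.0091 (cytosolic ribosomal), 0.034 (fibroblast) and 0.062 (all genes). With one clone left out they ran from 0.0070 to 0.047 (calcineurin), 0.053 to 0.11 (REST complex), 0.0090 to 0.046 (DREAM), -0.0048 to 0.0065 (cytosolic ribosomal), -0.0030 to 0.033 (splicing), -0.0015 to 0.059 (early lineage) and -0.029 to 0.014 (fibroblast). The ATF4, mitochondrial ribosomal, respiratory chain and protein folding medians moved by less than the spread between clones in each setting. That spread was the SD of the 3 clone medians, so a list whose clones disagree more meets this limit more easily. The mitochondrial ribosomal median went from 0.12 to 0.062 with the second normalization, where its clone medians had been 0.12, 0.036 and 0.20. A change of direction could not arise in every setting. The fits without the block and with trend and robust priors leave each difference as it was. Omission of a clone cannot reverse a mean whose clones all have the same sign. Nearly all named probesets past the unadjusted threshold were of that kind, so only the second normalization could change their direction. Of 212 named probesets, none of the 193 past the unadjusted threshold changed direction. Of the others 10 did, with ranges over the omission of each clone of -1.06 to 0.020 and -0.92 to 0.36 (2 probesets of Malat1), -1.03 to 0.031 (Knl1), -0.75 to 0.14 (Cenpe), -0.73 to 0.20 (1460086_at), -0.80 to 0.033 (5′ part of 18S), -0.14 to 0.21 (Rcan1), -0.012 to 0.14 (Rest), -0.21 to 0.013 (Lin52) and -0.034 to 0.088 (Ccnd1). After the second normalization Rcan1 was at -0.056, Rest at -0.0041 and Ccnd1 at -0.035. Of the named probesets, 70 passed the unadjusted threshold no longer without the block, 45 after the second normalization and 39 to 67 with one clone left out. The causes were not tested.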

Other observations

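A set of transcripts, of which Zfp352 is known from the early embryo, was higher in each clone, although the clones differed in their starting level by more than the induction moved them. AF067061 was at 10.61, 9.24 and 10.56 uninduced and at 10.99, 9.81 and 10.95 induced in clones 1, 2 and 3. Usp17la was at 8.53, 7.14 and 8.21 and then at 8.89, 7.63 and 8.66, and Gm20767 at 8.56, 7.23 and 8.47 and then at 8.90, 7.62 and 8.88. Clone 2 was the lowest of the 3 for each of these genes before and after induction, and it was also the lowest for Zfp352, at 5.05 and 5.54. Their differences were 0.44, 0.43, 0.38 and 0.53, and they were chosen after their values had been seen.

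Some transcripts moved one way in clone 2 and the other way in clones 1 and 3. Malat1, a nuclear noncoding RNA, differed by -1.36, 0.98 and -1.15 in clones 1, 2 and 3 on 1418188_a_at, and the kinetochore gene Knl1 by -1.22, 0.91 and -0.84. Cenpe gave -0.83, 0.95 and -0.67, and Wnk1 -0.73, 0.71 and -0.73. The control probeset for the 5′ part of 18S ribosomal RNA had the same signs, at 9.18, 5.51 and 5.999 uninduced and at 8.03, 6.03 and 5.55 induced. The Malat1, Knl1, Cenpe and Wnk1 probesets passed an adjusted p under 0.05 in limma where clone 2 was left out and in no other setting tried.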
